A study of Mus musculus with 72 samples.

Results

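Integrin and cadherin genes were followed across 72 RNA-Seq libraries from male mice with and without *Bmal1* (gene symbol *Arntl*), the transcriptional activator of the circadian clock. Members were the protein-coding genes named *Itga* or *Itgb* plus a subunit number or letter, or *Cdh* plus a number, with a mean normalized read count above 5 in at least 1 of 6 models, and 44 of the 50 such genes in the tables (of 55401 genes in all) met the rule. They comprised 18 of 18 integrin alpha genes, 8 of 9 integrin beta genes, and 18 of 23 cadherin genes. The genes below the minimum in every model were *Itgb2l*, *Cdh7*, *Cdh8*, *Cdh9*, *Cdh10*, and *Cdh12*.

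Gastrocnemius was taken from WT mice, from mice without *Bmal1* in any tissue (KO), and from KO mice infected at postnatal day 5 with an AAV9 vector carrying HA-tagged *Bmal1* under the muscle promoter CK6 (KO+AAV), at 10 weeks of age (6 WT, 6 KO, and 7 KO+AAV libraries) and at 40 weeks (5 libraries per group). A separate experiment compared 3 gastrocnemius libraries of KO mice that had received AAV9-CK6-GFP (KO+GFP) with 3 of control KO mice at 10 weeks. Lung, heart, liver, and white fat were each sequenced as 4 KO and 4 KO+AAV libraries at 40 weeks, with no WT library in these tissues. The labels give ZT1 as the collection time, except for the GFP experiment, where none is given, so each value is 1 time of day. The CK6 promoter is active in skeletal muscle and not in heart or liver, although the vector itself also reaches those organs. At 10 weeks the main experiment was sequenced at 2 sites, ICBR (3 WT, 3 KO, and 4 KO+AAV) and Novogene (3 of each). The remaining gastrocnemius libraries came from Novogene and the other tissues from ICBR. Reads on genes numbered 32563431 to 41733282 in the 10-week ICBR libraries, 10076827 to 11811506 in the 10-week Novogene libraries, 9325122 to 13610317 in gastrocnemius at 40 weeks, 6754312 to 8515400 in the GFP experiment, and 36903079 to 50755829 in the other tissues.

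Integrins are heterodimers of 1 alpha and 1 beta subunit that span the membrane and tie extracellular matrix or counter-receptors on other cells to the cytoskeleton through talin, kindlin, and the kinase ILK. In skeletal muscle the main laminin receptor of the fiber is made of the subunits encoded by *Itga7* and *Itgb1*, and it is enriched at the myotendinous junction. Classical cadherins bind cadherins on neighboring cells in the presence of calcium and anchor to actin through catenins. *Cdh15* (M-cadherin) marks satellite cells and myoblasts, and *Cdh5* (VE-cadherin) marks endothelium. Bulk tissue holds all these cells, so fewer cells of a type and less RNA per cell cannot be told apart in any value below.

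Each tissue held the defining genes of its label at a high level, and several libraries stood apart. *Acta1*, the actin of skeletal fibers, was the most abundant of 6 fiber genes in every WT and KO gastrocnemius library at 10 weeks. One KO heart library (replicate 2) held 859140 normalized reads of *Alb*, the liver's serum albumin gene. *Epcam*, an epithelial gene, stood at 12967 and 3810 in KO white fat replicates 2 and 3 and at 2476 in KO+AAV white fat replicate 2. KO white fat replicate 2 also held 748500 normalized reads of the epididymal gene *Gpx5* (0 to 1.59 in the other 7 fat libraries) and the fewest of the adipocyte gene *Adipoq* (21980, against 85684 to 174320). Among the 10-week KO+AAV gastrocnemius libraries, replicate 4 had a summed fibroblast marker level of 2469 TPM (reads per length of exon, scaled to the same total in every library) against 333 to 499.5 in the others and replicate 5 had a summed macrophage marker level of 1188 TPM (73.7 to 293 in the others). *Arntl* itself was lower in KO than in WT gastrocnemius at 10 weeks by 1.14 on the log2 scale (adjusted *P* = 6.6e-05, limma). At 40 weeks it read 480 to 608 in WT and 308 to 395 in 4 KO libraries, but 1039 in the library labelled KO replicate 2. The log2 difference (WT minus KO) at 40 weeks was 0.38 (adjusted *P* = 0.182), or 0.70 without that library (adjusted *P* = 0.000363). *Arntl* reads in KO rose with age by 0.98 (adjusted *P* = 0.00439), or by 0.67 without it (adjusted *P* = 0.00595). The clock outputs *Per3* and *Dbp* were low in that library too (3.58 and 32.2 normalized reads, below the other KO libraries), and counts that rest on it are also given without it. *Arntl* reads were not higher in KO+AAV than in KO gastrocnemius, at 169 to 281 against 196 to 296 at 10 weeks (log2 difference -0.06, adjusted *P* = 0.962, limma) and at 268 to 359 at 40 weeks (-0.48, adjusted *P* = 0.412, or -0.16 and 0.746 without KO replicate 2). *Per3* did separate them, at 116 to 270 in KO+AAV and 8.41 to 40.8 in KO at 10 weeks, and at 95.9 to 168 and 3.58 to 30.3 at 40 weeks. In liver *Arntl* was 781 to 1231 in KO+AAV and 584 to 679 in KO, without overlap (0.58, adjusted *P* = 0.998), and in heart it was 627 to 821 and 484 to 653 (0.32, adjusted *P* = 0.862).

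Among integrin alpha genes in WT gastrocnemius at 10 weeks, *Itga7* was the most abundant at 28.1 TPM ± 3.26 (SD, n = 6) and made up 42.6% of the summed alpha level of 65.9 TPM. *Itga6*, whose product also binds laminin, followed at 8.04 ± 1.63 TPM, a gap wider than the spread of either gene. Among beta genes, *Itgb1*, the common partner of most alpha subunits, stood at 135 ± 19.4 TPM (63.3% of the beta sum). *Itgb5*, which pairs with the subunit of *Itgav* as a vitronectin receptor, stood at 61.7 ± 3.57 TPM. Of the cadherins, *Cdh5* led at 51.5 ± 7.62 TPM, followed by *Cdh13* (T-cadherin, which is held in the membrane by a lipid anchor and binds adiponectin) at 17.7 ± 1.51 TPM and *Cdh15* at 16.2 ± 2.58 TPM, the last a pair that did not differ beyond their spread. At or above 1 TPM were 9 of 18 alpha genes, 4 of 8 beta genes, and 4 of 18 cadherins. *Cdh16*, *Cdh17*, *Cdh18*, *Cdh20*, *Cdh26*, and *Cdh3* were too low for a test in gastrocnemius, which left 38 members tested among 16199 genes.

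The first question was which adhesion genes depended on *Bmal1* in young muscle. Between WT and KO at 10 weeks, 6 of the 38 members changed (Benjamini-Hochberg adjusted *P* under 0.05 over all genes tested, limma), 3 higher and 3 lower in WT, where 4.26% of all genes were higher and 3.74% lower. In KO muscle *Itga9*, *Itga7*, and *Cdh13* rose and *Itga4*, *Itgb5*, and *Cdh4* fell. The same 6 members had *P* under 0.01, the study's own rule for DEGs, as had 5.7% of all genes higher and 5.15% lower in WT (10.9% in all). At *P* under 0.05 there were 8 members and 19.6% of all genes. The median log2 difference (WT minus KO) was -0.086 over the members and -0.007 over all genes.

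*Itga9* encodes a subunit that pairs with the *Itgb1* product and binds tenascin and osteopontin (ENSMUSG00000039115, chr9:118606690-118901003, GRCm38). Its normalized read count was 92.4 to 155 in WT (median 133) and 241 to 387 in KO (median 289), with no overlap. The KO mean was 2.38-fold higher in the fit (log2 difference -1.25, SE 0.22, adjusted *P* = 0.000228). The difference was -1.34 among Novogene libraries and -1.15 among ICBR libraries. *Itga7* read 1380 to 1622 in WT (median 1396) and 1764 to 2328 in KO (median 1923), again without overlap, for a log2 difference of -0.44 (SE 0.10, adjusted *P* = 0.00565). *Cdh13* went the same way, from 1051 to 1464 in WT (median 1290) up to 1544 to 1955 in KO (median 1724).

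*Itga4* encodes the alpha-4 subunit, which binds VCAM1 and fibronectin and is known from leukocytes and developing muscle (ENSMUSG00000027009, chr2:79255426-79333123). WT libraries ranged from 196 to 374 normalized reads (median 262) and KO libraries from 94.2 to 134 (median 119). Every KO library was below every WT library, and the fitted level was 2.30-fold higher in WT (log2 difference 1.2, SE 0.27, adjusted *P* = 0.00286). *Cdh4* (R-cadherin, ENSMUSG00000000305, chr2:179442431-179899373) read 140 to 465 in WT (median 226) and 61.9 to 133 in KO (median 75.6), a log2 difference of 1.57 (SE 0.48, adjusted *P* = 0.0373). The study named *Itga4* and *Cdh4* from these same libraries, so their calls are not independent evidence of a direction. *Itgb5* was 1314 to 1556 in WT (median 1400) and 865 to 1223 in KO (median 1080), for a log2 difference of 0.41 (SE 0.12, adjusted *P* = 0.0371).

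Each of these 6 differences had 1 direction at both sites. Leaving out any 1 of the 12 libraries kept the calls of *Itga9*, *Itga4*, and *Itga7*. The call of *Cdh13* was lost without WT replicate 4 (adjusted *P* = 0.0528), and those of *Itgb5* and *Cdh4* were lost in 8 of the 12 cases each, with adjusted *P* up to 0.114 and 0.092. Of 8 endothelial markers measured beside *Cdh13* and *Cdh5*, 1 was lower in WT (*Cldn5*, 161 ± 58.0 versus 280 ± 36.4 normalized reads), and 0 of 8 fibroblast and 0 of 10 macrophage markers changed. The part of endothelium in the *Cdh13* difference was not tested. *Cdh5*, the endothelial member, had a log2 difference of -0.37 and an adjusted *P* of 0.102.

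**Figure D1:**
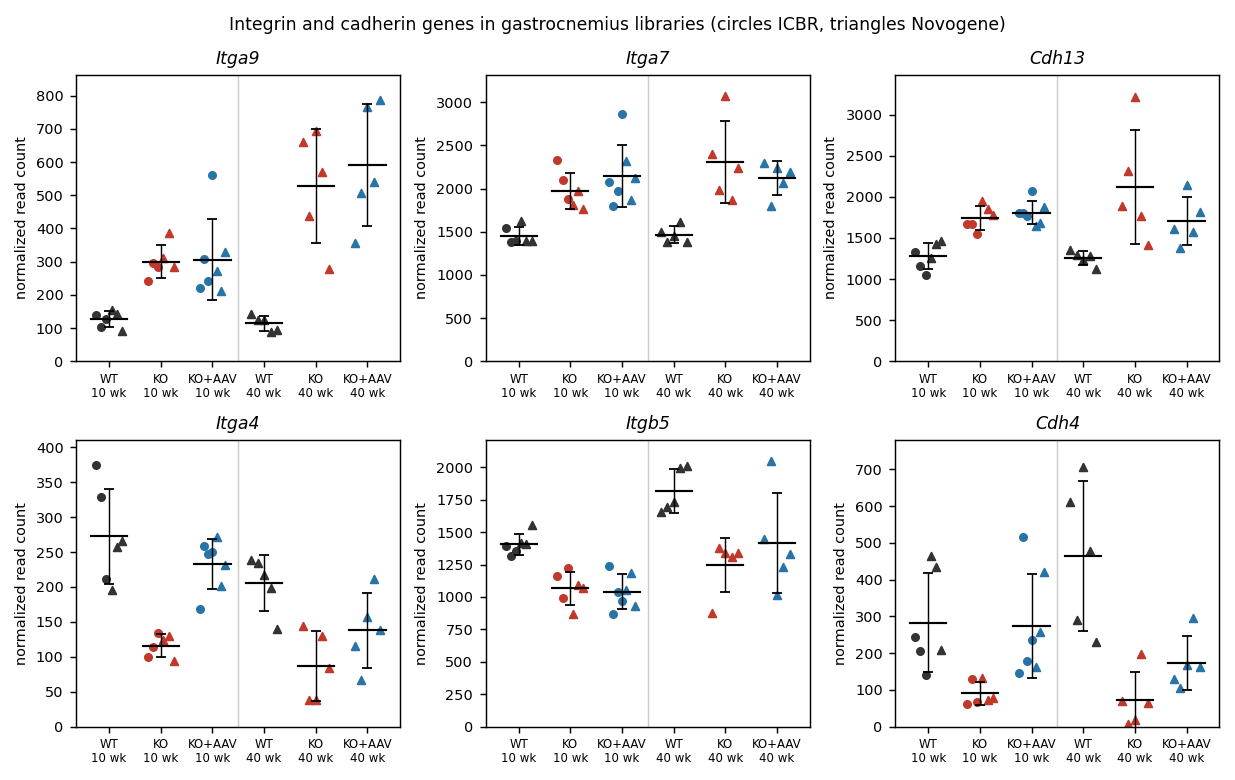
Normalized read counts (y axis, linear, from 0) of the 6 members called between WT and KO at 10 weeks, in each gastrocnemius library of the main experiment. Points are libraries (circles ICBR, triangles Novogene), bars are means, and error bars are SD. *Itga9*, *Itga7*, and *Cdh13* sit higher in KO and KO+AAV than in WT at both ages, and at 10 weeks all 7 KO+AAV libraries of *Itga4* and *Cdh4* lie above all KO libraries.

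BMAL1 with its partner CLOCK binds the E-box CACGTG, so the 250 bases before the annotated start to 50 bases after it were searched where RefSeq (GRCm38.p6) had an entry, which was the case for 26 of 44 members. *Cdh4*, *Itga7*, and *Cdh13*, all called between WT and KO in young muscle, had no entry and were not searched. The search therefore cannot say whether these genes carry an E-box. CACGTG, a palindrome and so the same on both strands, was found in 1 member with an entry, *Cdh15*, and in 8.09% of 27025 gene symbols. The variant CACGTT, or AACGTG on the other strand, was found only in *Itga9* (5.44% of symbols). The RefSeq windows of *Itga9* and *Cdh15* lie inside the genes as annotated in GENCODE, downstream of the start given there. AGGTCA, the core bound by REV-ERB and ROR receptors, with TGACCT on the other strand, was found only in *Cdh18* among the members (18.1% of symbols). *Itga4* and *Itgb5*, which fell in KO, are shown with *Cdh15*, which did not pass the test. The 250 bases before each RefSeq start are chr2:79255176-79255425 for *Itga4*, chr16:33829415-33829664 for *Itgb5*, and chr8:122848124-122848373 for *Cdh15*, each on the plus strand, and capitals mark CACGTG, 32 bases before the RefSeq start of *Cdh15*.
Itga4: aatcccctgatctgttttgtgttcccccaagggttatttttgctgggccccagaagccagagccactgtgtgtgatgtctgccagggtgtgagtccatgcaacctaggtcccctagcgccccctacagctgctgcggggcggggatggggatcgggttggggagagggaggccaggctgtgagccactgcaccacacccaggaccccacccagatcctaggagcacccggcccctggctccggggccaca
Itgb5: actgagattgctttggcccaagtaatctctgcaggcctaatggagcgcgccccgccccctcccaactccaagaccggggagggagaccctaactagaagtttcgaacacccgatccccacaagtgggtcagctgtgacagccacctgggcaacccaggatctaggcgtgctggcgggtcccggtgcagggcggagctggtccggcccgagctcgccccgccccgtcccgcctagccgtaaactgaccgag
Cdh15: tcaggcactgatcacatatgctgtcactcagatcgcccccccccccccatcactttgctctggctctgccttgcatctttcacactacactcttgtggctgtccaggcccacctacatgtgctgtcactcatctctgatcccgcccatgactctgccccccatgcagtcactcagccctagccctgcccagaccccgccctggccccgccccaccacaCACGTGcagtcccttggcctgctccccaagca
All 3 windows were rich in G and C (64%, 65.2%, and 62.0%). A match of letters is a description of the window and not a binding site.

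KO+AAV was compared with KO to ask what the *Bmal1* vector did in muscle, although *Arntl* reads did not separate these groups. By Western blot the study detected the HA-tagged BMAL1 protein in KO+AAV gastrocnemius at 10 weeks, below the WT level of BMAL1. At 10 weeks no member passed the adjusted threshold in limma, beside 0.204% of all genes, while 3 members had an unadjusted *P* under 0.05 (9.23% of all genes). The edgeR count was 0 and the DESeq2 count 2. Both shares are from limma, and none is given for DESeq2. The 2 members with *P* under 0.01 were *Itga4* and *Cdh4*, both higher in KO+AAV (2.63% of all genes met that rule, 1.52% higher and 1.11% lower). *Itga4* read 168 to 272 normalized reads in KO+AAV (median 247) and did not overlap KO (94.2 to 134). Its log2 difference was 0.99 (SE 0.26, adjusted *P* = 0.119 with limma and 0.0075 with DESeq2). *Cdh4* read 146 to 517 in KO+AAV (median 236), also above all 6 KO libraries, for a log2 difference of 1.54 (SE 0.47, adjusted *P* = 0.231 with limma and 0.041 with DESeq2).

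The 4 other members called between WT and KO at 10 weeks had KO+AAV values near KO. The log2 difference (KO+AAV minus KO) was -0.03 for *Itga9* (95% interval -0.45 to 0.39), 0.11 for *Itga7* (-0.09 to 0.30), 0.06 for *Cdh13* (-0.18 to 0.29), and -0.04 for *Itgb5* (-0.27 to 0.20). Over all 38 members the median was 0.081, against 0.009 over all genes. No marker of other cells was called. The median log2 difference was 1.31 over 10 macrophage, 0.974 over 8 leukocyte, 0.973 over 5 adipocyte, and 0.603 over 8 fibroblast markers, and -0.155 over 6 Schwann cell and -0.094 over 8 endothelial markers. The summed B and plasma cell level was 112 to 222 TPM in KO and 47.9 to 114 TPM in KO+AAV (*Ighm*, the 1 gene of that list tested, -1.32). The part of these cells in the members' values was not tested. Some leukocyte integrins were highest in KO+AAV replicate 5, where *Itgb2* read 233 (11.9 to 49.3 in the other 6 KO+AAV libraries), *Itgam* 173 (4.34 to 21.8), and *Itgax* 65.7 (3.95 to 11.2), while *Itgad* and *Itgae* were highest in replicate 6 (27.7 and 21.1). *Itgam* shares 68.7% of its exon bases with a gene on the same strand, so its reads are uncertain.

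Set directly against WT at 10 weeks, KO+AAV muscle differed in 5 members, 1 higher and 4 lower in WT (2.94% and 2.21% of all genes, 5.15% in all). *Itga9* (log2 difference -1.22, adjusted *P* = 0.00038), *Itga7* (-0.54), *Cdh13* (-0.51), and *Itga5*, the fibronectin receptor subunit (-0.78), were higher in KO+AAV, and *Itgb5* was lower (0.44). Without KO+AAV replicate 4, the fibroblast-rich library, 3 members were called, and the adjusted *P* of *Itga5* was 0.123. The 5.15% belongs to the fit of all libraries, and no share is given for the fit without replicate 4. The call of *Itga5* was lost in 9 and that of *Itgb5* in 4 of 13 cases with 1 library left out. Of the markers of other cells, *Mrc1* of macrophages (-1.34) and *Cldn5* of endothelium (-0.87) were higher in KO+AAV, as was the fiber gene *Mylpf* (-0.58), and their part in these differences was not tested. In contrast, *Itga4* and *Cdh4* had log2 differences of 0.21 (95% interval -0.29 to 0.71) and 0.04 (-0.88 to 0.95). *Itga3* (-0.38) and *Cdh11* (-1.40), a mesenchymal cadherin, had adjusted *P* of 0.0591 and 0.0784 and brought the members with *P* under 0.01 to 7, 1 higher and 6 lower (4.73% and 4.02% of all genes, 8.75% in all). This comparison shares its WT libraries with WT versus KO and its KO+AAV libraries with KO+AAV versus KO.

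At 40 weeks 13 of 38 members changed between WT and KO, 5 higher and 8 lower in WT, beside 12% and 11.5% of all genes. At *P* under 0.05 there were 14 members and 35.3% of all genes. All 6 members called at 10 weeks were called again, in the same direction. The 7 called at 40 weeks and not at 10 weeks were *Cdh23*, *Itga11*, *Itga5*, *Itga10*, *Itga8*, *Itga3*, and *Cdh6*. Without KO replicate 2, 12 members were called (19.7% of all genes were), each among these 13, and the member lost was *Cdh6* (adjusted *P* = 0.079). The log2 differences without that library were -2.19 for *Itga9*, -0.69 for *Itga7*, -0.95 for *Itga5*, -0.65 for *Cdh13*, 1.18 for *Itga4*, and 0.60 for *Itgb5*.

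Of all members, *Itga9* had the smallest *P* at 40 weeks. WT libraries read 142, 123, 124, 87.6, and 95.3, and KO libraries 660, 439, 694, 569, and 277. The lowest KO library was above the highest WT library, and the KO level was 4.42-fold higher in the fit (log2 difference -2.15, SE 0.24, adjusted *P* = 8.75e-08). *Itga7* read 1498, 1387, 1448, 1618, and 1382 in WT against 2402, 1986, 3078, 1865, and 2236 in KO, again with no overlap (-0.64, SE 0.11, adjusted *P* = 0.000104). *Itga5* rose in KO from 138 to 167 in WT up to 189 to 602 (-1.04, SE 0.26, adjusted *P* = 0.00428). *Cdh13* was 1118 to 1358 in WT and 1413 to 3214 in KO (-0.70, adjusted *P* = 0.000319). *Itga10*, a collagen receptor subunit, was 4.45 to 17.2 in WT and 19.9 to 59.1 in KO, but it shares 33.5% of its exon bases with another gene. *Itga8*, a nephronectin receptor subunit, and *Itga3*, a laminin receptor subunit, overlapped between groups (-1.02 and -0.40), and their calls were lost in 4 and 5 of 10 cases with 1 library left out (adjusted *P* up to 0.101 and 0.0879). *Cdh6*, at 0 to 3.76 in WT and 1.38 to 20.7 in KO, was lost in 6 of 10.

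Members lower in KO at 40 weeks were led by *Cdh4*. It read 612, 291, 708, 478, and 231 in WT and 68.8, 7.16, 16.9, 198, and 64.8 in KO. The groups did not overlap, and the log2 difference was 3.34 (SE 0.53, adjusted *P* = 2.09e-05), or 2.75 (adjusted *P* = 7.2e-05) without KO replicate 2, which was the lowest library. *Itga4* read 239, 234, 218, 199, and 139 in WT and 144, 37.6, 38.3, 130, and 84.1 in KO, so 1 KO library was above the lowest WT library (1.43, SE 0.29, adjusted *P* = 0.000525). *Itgb5* read 1653 to 2007 in WT and 874 to 1377 in KO (0.56, SE 0.14, adjusted *P* = 0.00298). *Itga11*, a collagen receptor subunit of fibroblasts, read 46.9 to 123 in WT and 16.1 to 35.9 in KO (1.69, SE 0.46, adjusted *P* = 0.00751). *Cdh23*, known from hair cell tip links, was 101 to 177 in WT and 41.2 to 114 in KO (0.89, adjusted *P* = 0.00396).

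Markers of other cells moved between the same groups at 40 weeks. Of 8 fibroblast markers 5 were higher in WT (median log2 difference 1.037), and their summed level was 209 to 290 TPM in WT and 53.2 to 190 TPM in KO, with *Dcn* the most abundant in all 5 WT libraries. Of 8 endothelial markers 3 were lower in WT (median -0.352), and of the 3 epithelial markers tested 2 were (*Krt18*, 8.69 ± 8.73 versus 342 ± 262 normalized reads, and *Krt8*, 1.46 ± 2.0 versus 54.7 ± 54.8). *Epcam* and *Krt5* of the same list were at 0 in every WT and KO library at 40 weeks. The WT mean of *Krt8* lay below the minimum mean read count set for testing, so its difference is not read as support. Of 5 adipocyte markers 2 were higher in WT (*Lep* and *Adipoq*, median 1.827). Blood cell markers were also higher in WT, namely the T cell gene *Cd3e* (29.0 versus 3.94 normalized reads, log2 difference 2.95), *Ighm* of B cells (1905 versus 830, 1.65), *Pf4* of platelets (46.0 versus 12.2, 1.94), each the 1 gene of its list that was tested, and 1 of 8 leukocyte markers (*Arhgdib*, 1.02), while 0 of 10 macrophage markers changed. The satellite cell marker *Pax7* (0.72) and the hepatocyte marker *Alb* (3.61) were higher in WT too. None of the 8 fibroblast or 8 endothelial markers was at 0 in these libraries. The part of these cells in the differences of *Itga4*, *Itga11*, *Cdh13*, and the other members was not tested. Skeletal fiber markers gave 0 calls of 6 (median 0.147). Without KO replicate 2 the calls were 4 of 8 fibroblast markers higher in WT, 3 of 8 endothelial markers lower (2 of them called with it), 2 of 3 epithelial markers lower, 2 of 5 adipocyte markers higher, and *Cd3e* and *Pf4* higher, while *Ighm*, *Arhgdib*, *Pax7*, and *Alb* were not called, where 19.7% of all genes were called.

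In KO+AAV versus KO at 40 weeks no member passed the adjusted threshold, beside 0.259% of all genes (0.037% lower in KO+AAV), with 4 members at an unadjusted *P* under 0.05 (10.1% of all genes) and 0 called by edgeR or DESeq2. *Cdh4* alone had *P* under 0.01, a rule met by 3.25% of all genes (2.01% higher and 1.23% lower). Its KO+AAV libraries read 131, 105, 166, 296, and 162 and overlapped KO through 1 KO library at 198 (log2 difference 1.95, SE 0.53, adjusted *P* = 0.122). Without KO replicate 2 the difference was 1.35 (adjusted *P* = 0.28), and without KO replicate 4 it passed (adjusted *P* = 0.0075). The count of members called was 0 without KO replicate 2 as well, where 0.272% of all genes were called. *Itga4* read 115, 67.4, 156, 212, and 138 in KO+AAV, for a log2 difference of 0.78 (95% interval 0.21 to 1.35, adjusted *P* = 0.332). *Itga9* in KO+AAV was 357, 505, 766, 539, and 787, within or above the KO range (0.18, 95% interval -0.30 to 0.65). For *Itga11* the difference was 0.05 (-0.86 to 0.95).

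WT versus KO+AAV at 40 weeks gave 8 calls, 2 higher and 6 lower in WT (6.05% and 6.41% of all genes). *Itga9* was again far apart, at 87.6 to 142 in WT and 357 to 787 in KO+AAV (-2.32, SE 0.24, adjusted *P* = 5.54e-08). *Itga7* (-0.53), *Itga10* (-1.55), *Itga5* (-0.93), *Cdh13* (-0.43), and *Itgb1* (-0.31, 3196 ± 260 versus 3969 ± 334) were higher in KO+AAV, and *Itga11* (1.64) and *Cdh23* (0.74) were lower. Of 8 fibroblast markers 4 were higher in WT (*Dpt* 1.62, *Dcn* 1.18, *Pi16* 1.90, and *Pdgfra* 1.06), and of 3 epithelial markers 2 were lower (*Krt18* -5.88 and *Krt8* -4.70). *Epcam* and *Krt5* of the epithelial list were at 0 in every library of both groups. *Cd3e* (3.54), *Ighm* (2.19), the adipocyte marker *Lep* (4.11), and the satellite cell marker *Spry1* (0.59) were also higher in WT. What share these cells had in the members' differences was not tested. With 1 of the 10 libraries left out, the calls of *Itga9* and *Itga7* held in every case, while *Itgb1* was lost in 8, *Cdh13* in 6, *Cdh23* in 5, *Itga5* in 2, and *Itga10* (without WT replicate 1) and *Itga11* (without KO+AAV replicate 2) in 1 each. *Itgb5* (0.39, adjusted *P* = 0.0519) and *Cdh6* (-1.52, 0.0643) had *P* under 0.01, as had 7.14% of all genes higher and 7.45% lower in WT. *Cdh4* and *Itga4* had differences of 1.39 (SE 0.53, adjusted *P* = 0.0813) and 0.65 (SE 0.29, adjusted *P* = 0.152).

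**Figure D2:**
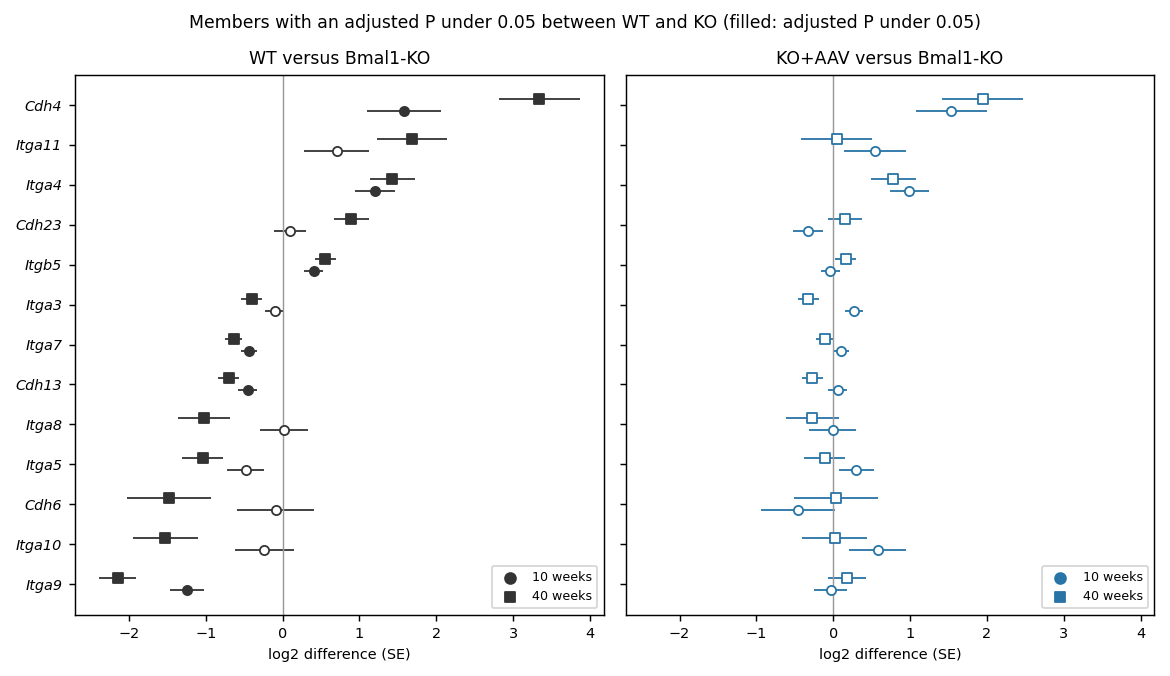
Log2 differences (x axis) with standard errors for the 13 members called between WT and KO at either age, as WT minus KO (left) and KO+AAV minus KO (right) at 10 weeks (circles) and 40 weeks (squares). Filled symbols have an adjusted *P* under 0.05. All symbols on the right are open, and *Cdh4* (1.54 and 1.95) and *Itga4* (0.99 and 0.78) lie farthest from 0 at both ages. Both panels share their KO libraries.

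Age was compared within each group, with the 10-week libraries from 2 sites and the 40-week libraries from Novogene. In WT no member passed (0.148% of all genes did, 0.111% higher and 0.037% lower at 40 weeks), with 6 members at an unadjusted *P* under 0.05 (7.46% of all genes) and 0 called by edgeR or DESeq2. The adipocyte marker *Lep* rose (4.14). *Itga8* was 22.8 to 41.6 at 10 weeks and 7.08 to 20.8 at 40 weeks without overlap (log2 difference, 40 minus 10 weeks, -1.20, adjusted *P* = 0.229). *Itgad* (1.28, adjusted *P* = 0.28) and *Cdh6* (-1.63, adjusted *P* = 0.378) also had *P* under 0.01 (1.22% of all genes were higher and 1.06% lower by that rule). *Itgad*, a leukocyte subunit, was at or near 0 in all 10 ICBR libraries at 10 weeks (at most 1.063 normalized reads) and at 6.06 to 27.7 in the 9 Novogene libraries, so its level moved with the site.

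In KO 2 members changed with age (8.31% of all genes did): *Itga2*, a collagen receptor subunit, fell (20.1 ± 11.3 to 5.95 ± 5.6, log2 difference -2.23, adjusted *P* = 0.0229), and *Itgad* rose (1.30, adjusted *P* = 0.0367). Without KO replicate 2 at 40 weeks no member was called (adjusted *P* = 0.106 and 0.172), and the calls were lost in 3 and 6 of 11 cases with 1 library left out. *Itga9* (0.74, adjusted *P* = 0.0578), *Cdh5* (-0.46, 0.0587), and *Itgal* (-1.83, 0.051) had *P* under 0.01. In the same comparison the markers *Krt18* (4.10), *Krt8* (4.28), and *Flt1* of endothelium (0.59) rose, and *Ighm* (-1.75), *Cd34* (-0.97), *Rgs5* of pericytes (-0.55), *Pax7* (-0.92), and *Lep* (-2.61) fell. Of these, *Krt18* and *Krt8* were called without KO replicate 2 (2.91% of all genes were), and the part of these cells was not tested. In KO+AAV 5 members changed (8.53% of all genes). *Itga9* rose with age from 306 ± 121 to 591 ± 183 (0.95, SE 0.25, adjusted *P* = 0.0136), while *Itga3* (-0.49), *Itga2* (-2.15), *Itga1*, a collagen receptor subunit (-0.68), and *Cdh5* (-0.50) fell. Markers of other cells moved too: 3 of 8 fibroblast markers (*Col1a1* -2.45, *Col3a1* -1.99, and *Cd34* -1.15), 2 of 6 pericyte and smooth muscle markers (*Pdgfrb* -0.70 and *Rgs5* -0.50), 1 of 10 macrophage markers (*Mrc1* -1.73, list median -1.252), the leukocyte marker *Lcp1* (-1.87), *Cd3e* (-2.41), and the satellite cell markers *Spry1* (-0.59) and *Myf5* (-0.97) fell, and 2 of 3 epithelial markers rose (*Krt18* 5.25 and *Krt8* 4.18). The part of these cells in the members' differences was not tested. *Epcam* and *Krt5* of the epithelial list were at 0 in every KO and KO+AAV library compared here. *Itga1* was highest in the fibroblast-rich 10-week KO+AAV replicate 4 (751 normalized reads, 341 to 462 in the others). Without that library the 3 fibroblast calls held and *Itga1* had a difference of -0.60 (adjusted *P* = 0.0318). *Itgb5* had a difference of 0.41 and an adjusted *P* of 0.0557. With Novogene libraries alone, where both ages share 1 site, 0 members were called in KO and 1 in KO+AAV (*Itga9*, 1.09, adjusted *P* = 0.038). In KO+AAV with 1 of 12 libraries left out, the call of *Itga9* held in every case, and those of *Cdh5*, *Itga3*, and *Itga2* were lost in 3, 2, and 1 cases. That of *Itga1* was lost without 40-week KO+AAV replicate 2 (adjusted *P* = 0.13). The range of calls without 1 library was 2 to 7 in KO+AAV and 0 to 6 in KO.

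Whether the genotype difference changed with age was tested as an interaction, and no member passed for WT versus KO (0.37% of all genes did) or for KO+AAV versus KO (0.00617%). At an unadjusted *P* under 0.05 there were 5 and 1 members (13% and 5.15% of all genes), and edgeR and DESeq2 called 0. Both limma counts were also 0 without KO replicate 2, with 4 and 1 members at that *P*. The smallest *P* for WT versus KO belonged to *Itga9*, whose difference moved by -0.90 from 10 to 40 weeks (SE 0.33, adjusted *P* = 0.227). For *Cdh4* it moved by 1.76 (SE 0.72, adjusted *P* = 0.284), or with an adjusted *P* of 0.54 without KO replicate 2. For *Itga3* the KO+AAV-KO difference was lower at 40 weeks by a log2 value of -0.60 (SE 0.18, adjusted *P* = 0.895).

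KO+GFP was compared with control KO to ask what the vector did without *Bmal1*. Of 29 members tested none passed in limma (3.09% of 14477 genes did), with 9 at an unadjusted *P* under 0.05 (18.7% of all genes). The edgeR count was 0 and the DESeq2 count 1 (*Itga9*, adjusted *P* = 0.038), without a DESeq2 share of all genes beside it. By *P* under 0.01, 2 members were higher and 3 lower in KO+GFP (4.37% and 3.88% of genes). *Itgb5* read 567.3, 594, and 567.5 with GFP and 408, 471, and 476 without (log2 difference 0.35, SE 0.09, adjusted *P* = 0.0639). *Itga9* read 115, 123, and 105 with GFP and 137, 178, and 219 without (-0.61, SE 0.17, adjusted *P* = 0.0687). Neither pair of groups overlapped.

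*Itgb3*, the beta subunit of platelets and osteoclasts, read 10.1, 17.3, and 21.2 with GFP and 2.98, 2.27, and 7.25 without (1.80, adjusted *P* = 0.0683). The control KO mean of *Itgb3* lay below the minimum mean read count set for testing. *Itgb3*, counted among the members higher in KO+GFP, thus passed the filter only through KO+GFP, and its difference is not read as support. *Itgb4*, which pairs with the *Itga6* product in hemidesmosomes and in Schwann cells, read 38.3, 35.5, and 20.3 with GFP and 62.5, 46.6, and 66.3 without (-0.91, adjusted *P* = 0.0844). *Cdh15* read 91.2, 126, and 81.1 against 148, 163, and 129 (-0.57, adjusted *P* = 0.0958). Beside them, 3 of 6 Schwann cell markers were lower with GFP (median -1.002, summed level 42.5 to 63.6 TPM versus 111 to 145 TPM), 7 of 10 macrophage markers were higher (median 1.51), and 4 of 8 fibroblast markers were higher (median 0.904), *Ighm* was lower (-1.63), and *Myl2*, a myosin light chain of heart and slow fibers, was higher (2.56), and their part in these values was not tested. *Itga4* (47.6 ± 9.91 versus 74.2 ± 37.1) and *Cdh4* (53.6 ± 7.74 versus 57.2 ± 36.8) had log2 differences of -0.51 (adjusted *P* = 0.439) and 0.13 (adjusted *P* = 0.898).

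Levels by tissue were compared as TPM without a test, since each tissue was normalized on its own. In KO lung at 40 weeks the summed levels were 492.7 TPM for integrin alpha genes, 762 TPM for beta genes, and 816 TPM for cadherins, each the highest of the 5 tissues. Lung alpha genes were led by *Itga3* (140 ± 10.2 TPM) and *Itga8* (90.8 ± 13.3 TPM), and its cadherins by *Cdh5* (537 ± 72.2 TPM) and *Cdh1* (E-cadherin of epithelia, 227 ± 15.6 TPM). In KO heart *Itga7* (67.4 ± 25.6 TPM), *Itgb1* (217.5 ± 46.6 TPM), *Cdh5* (74.2 ± 29.9 TPM), and *Cdh2* (N-cadherin of the intercalated disc, 70.6 ± 14.0 TPM) were high. Liver had the lowest alpha sum (52.2 TPM) and was led by *Itga5* (23.4 ± 5.24 TPM), *Itgb1* (133 ± 6.77 TPM), and *Cdh2* (33.3 ± 0.862 TPM). White fat was led by *Itga7* (88.1 ± 48.8 TPM), *Itgb1* (316 ± 45.1 TPM), and *Cdh5* (123 ± 71.8 TPM, SD, n = 4 in each).

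*Itgb1* was the most abundant beta gene in every tissue. *Cdh15* reached 17.9 TPM in KO gastrocnemius at 40 weeks and at most 0.109 TPM in the group means of the other tissues. *Cdh16*, known from kidney epithelium, averaged 50.7 TPM in KO white fat, but this came from replicates 2 and 3 (6239 and 4547 normalized reads), with replicates 1 and 4 at 0. KO+AAV white fat replicate 2 held 3280 reads, and the other 3 held 0 to 1.93. These were the same libraries in which *Epcam* was high, so the fat level of *Cdh16* belongs to 3 of 8 libraries. *Cdh1* in heart likewise was 484 in KO replicate 2, the library rich in *Alb*, and 0 to 14.7 in the other 7.

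**Figure D3:**
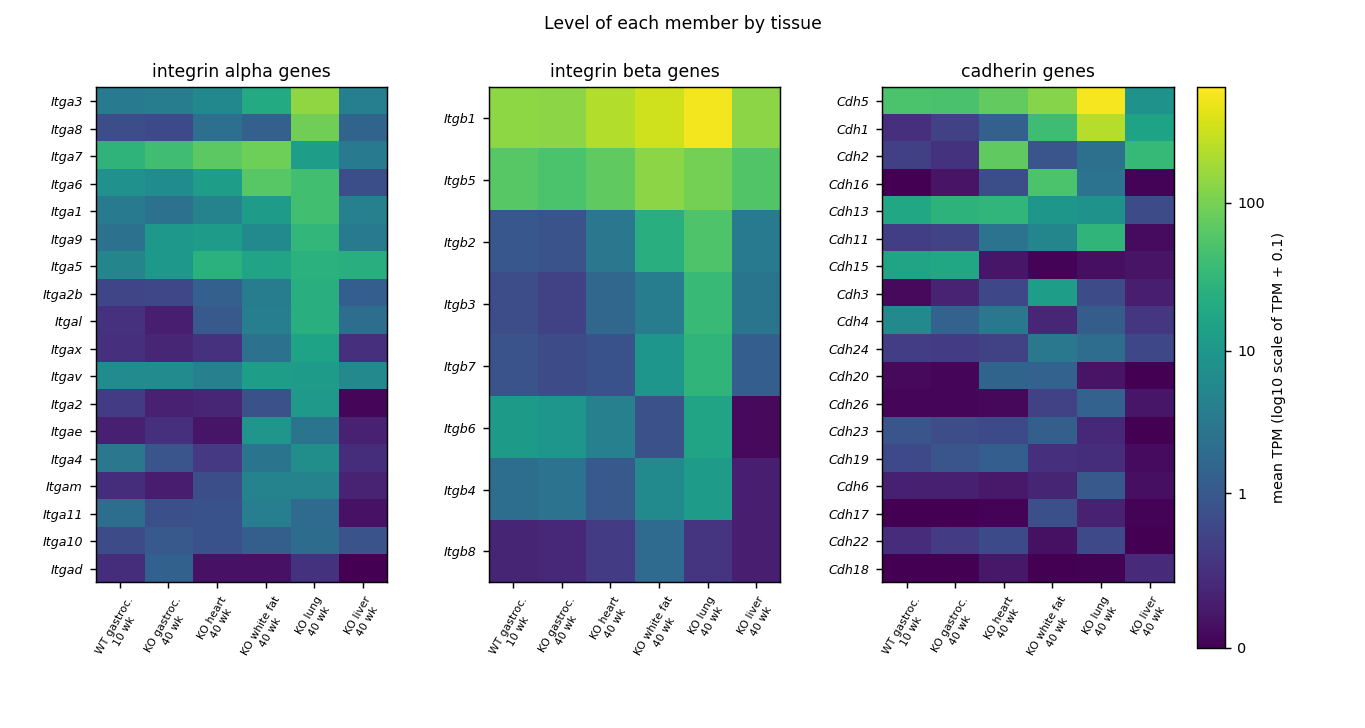
Mean TPM of all 44 members (color, log10 scale of TPM + 0.1) in WT gastrocnemius at 10 weeks and in KO gastrocnemius, heart, white fat, lung, and liver at 40 weeks (n = 4 to 6 libraries), one panel per family, ordered by the highest level. *Itgb1* is bright in every column, *Cdh15* in both gastrocnemius columns, and *Cdh2* in heart and liver. Libraries that stood apart are included.

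KO+AAV was compared with KO in the 4 tissues to ask what muscle *Bmal1* did elsewhere. No GFP vector group was sequenced in these tissues, so an effect of the vector itself cannot be told apart from one of muscle *Bmal1*. In lung none of 42 members passed in limma (0.0237% of 21072 genes did), while 13 had an unadjusted *P* under 0.05 (11.9% of all genes). The edgeR count was 0 and the DESeq2 count 5. Both shares are from limma, so the DESeq2 count has no background to be read against. By *P* under 0.01, 4 members were higher and 2 lower in KO+AAV, beside 3.06% and 0.902% of all genes. *Cdh26*, an epithelial cadherin, read 41.0, 79.2, 94.8, and 84.1 in KO and 738, 165, 588, and 536 in KO+AAV, with no overlap (log2 difference 2.62, SE 0.46, adjusted *P* = 0.0976). *Itgb6*, the epithelial beta subunit known for activating TGF-beta, read 2250, 1994, 1932, and 1816 in KO and 1364, 1043, 1571, and 1219 in KO+AAV (-0.63, SE 0.12, adjusted *P* = 0.114). *Itga9* was 3860 to 4621 in KO and 3112 to 3429 in KO+AAV (-0.37, SE 0.07, adjusted *P* = 0.11). Both members lower in KO+AAV were without overlap.

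*Cdh2* in lung read 175, 317, 439, and 401 in KO and 697, 393, 853, and 891 in KO+AAV, overlapping through 1 KO+AAV library (1.10, SE 0.33, adjusted *P* = 0.243). *Cdh20* (4.16 ± 2.33 versus 15.6 ± 4.44, 1.78) and *Itga10* (185 ± 37.2 versus 304 ± 60.3, 0.71) had adjusted *P* of 0.185 and 0.203. The KO mean of *Cdh20* lay below the minimum of 5. *Cdh20*, 1 of the 4 higher members, thus passed the filter only through KO+AAV, and its difference is not read as support. Heart muscle genes moved with these values. *Myh6*, the cardiac myosin heavy chain, read 1918, 11713, 13651, and 19027 in KO lung and 67485, 30771, 90552, and 100520 in KO+AAV lung, and 4 of 5 cardiomyocyte markers had *P* under 0.01 (summed level 42.6 to 301 TPM versus 492 to 1560 TPM, led by *Myh6* in all 4 KO+AAV libraries). *Krt5*, a basal epithelial keratin, was at 0 in all 4 KO libraries and at 77.3, 21.9, 49.8, and 74.4 in KO+AAV. *Krt5* thus also passed the filter only through KO+AAV, and its difference is not read as support. Mean summed levels of other lists moved as well. Macrophage (7480 TPM in KO versus 5426 in KO+AAV), neutrophil (552 versus 284), and Schwann cell markers (776 versus 632) were lower in KO+AAV. Smooth muscle and pericyte (522 versus 629), skeletal fiber (20.6 versus 67.9), and B and plasma cell markers (349 versus 586) were higher. Each of these lists overlapped between groups. The part of cardiac, basal epithelial, or these other cells in *Cdh2*, *Cdh26*, or the other lung members was not tested.

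**Figure D4:**
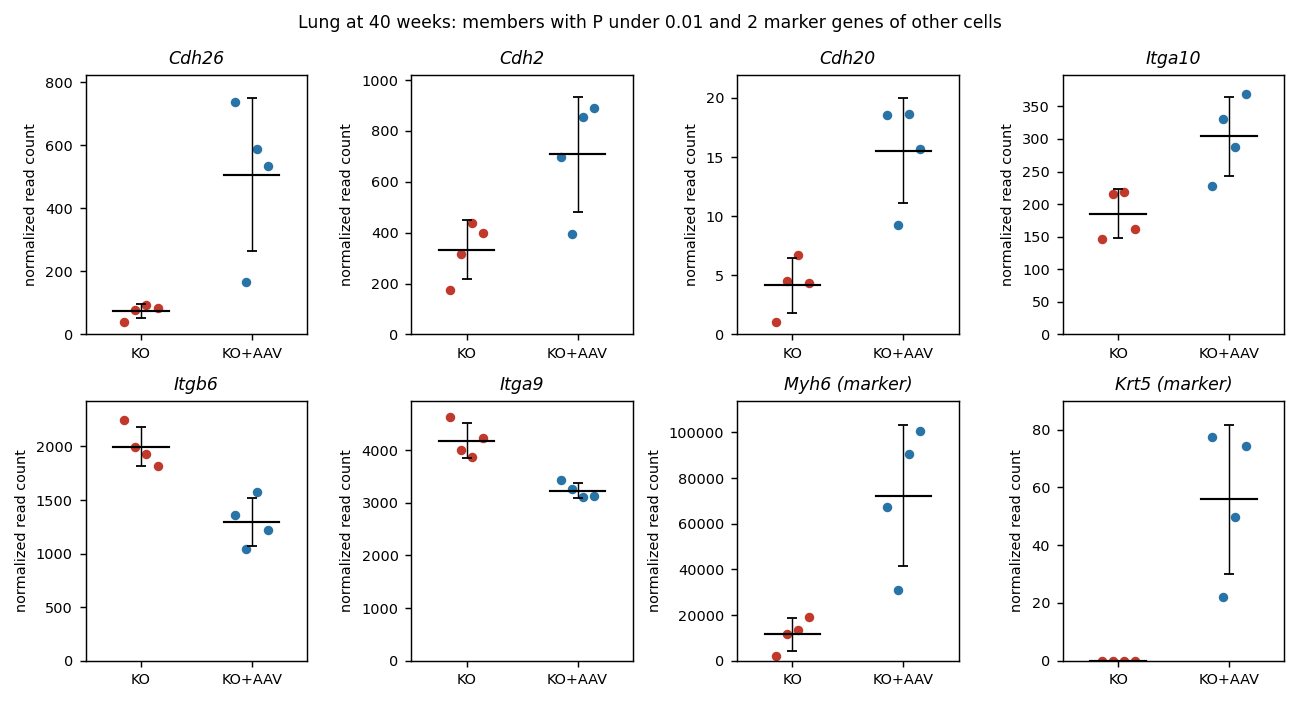
Normalized read counts (y axes, linear, from 0) in the 4 KO and 4 KO+AAV lung libraries for the 6 members with *P* under 0.01 and for the marker genes *Myh6* and *Krt5*. Points are libraries, bars are means, and error bars are SD. *Cdh26*, *Cdh20*, *Itga10*, *Itgb6*, and *Itga9* do not overlap, and *Myh6* and *Krt5* are higher in all KO+AAV libraries. *Cdh20* and *Krt5* passed the filter on low values only through their KO+AAV libraries.

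In heart, liver, and white fat 0% of all genes passed, no member had *P* under 0.01, and edgeR and DESeq2 called 0 members. Unadjusted *P* under 0.05 was met by 1 member in each (*Cdh23* in heart, *Cdh24* in liver, and *Itga10* in white fat, named after their values were seen), a rule that 1.28%, 3.32%, and 1.04% of all genes met. In heart 34 of 40 members had a higher mean log value in KO+AAV (median 0.277, all genes -0.012). Without the *Alb*-rich KO library this was 25 of 39 with a median of 0.068. *Itga7* in heart had a log2 difference of 0.39 with that library and 0.08 without it. In liver the leading members *Itga5* (0.14), *Itgb1* (0.08), and *Cdh2* (0.06) had 95% intervals of -0.25 to 0.52, -0.07 to 0.22, and -0.13 to 0.25. In white fat *Itga7* was 0.52 (95% interval -0.66 to 1.69), and without the 3 *Epcam*-high libraries it was -0.09.

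The partners of these receptors were counted from 4 lists. Between WT and KO at 10 weeks, where 8% of all genes were called, 1 of 28 intracellular integrin adaptors was higher in WT (*Fermt2*, kindlin-2, 0.33) and 2 were lower (*Tln2*, the talin of adult muscle, 2693 ± 220 versus 4198 ± 779 normalized reads, -0.62, adjusted *P* = 8.8e-06, and *Parvb*, -0.30). Of 24 integrin ligands, 1 changed, *Lamb2*, a laminin chain of synaptic basement membrane (-0.60), and of 11 cadherin partners 1, *Ctnna3*, an alpha-catenin of muscle (-0.60). The dystrophin complex, the other laminin link of the fiber, had 4 of 15 genes higher in WT (led by *Dtnb*, 1.85, and *Sntb1*, 1.57) and 1 lower (*Dag1*, -0.28).

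At 40 weeks 23.5% of all genes were called between WT and KO. Adaptors numbered 2 higher and 6 lower in WT (*Fermt2* 0.45 and *Itgb1bp1* 0.29 against *Parvb* -0.71 and *Tns1* -0.60). Ligands numbered 3 higher and 5 lower, among them *Vtn*, vitronectin (1.037), and *Lama4* (1.17) against *Icam1* (-1.36). Cadherin partners were 0 higher and 5 lower (*Arvcf*, -0.71, and *Pkp4*, -0.98), and the dystrophin complex 5 higher and 3 lower (*Sntb1* 2.12 and *Sspn* 0.60 against *Dtna* -0.35). Without KO replicate 2 the counts, higher and lower in WT, were 2 and 4 for adaptors, 3 and 4 for ligands, 0 and 3 for cadherin partners, and 4 and 2 for the dystrophin complex (19.7% of all genes). In KO+AAV versus KO 0 genes of the 4 lists passed at either age, and 0 at 40 weeks without KO replicate 2.

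For WT versus KO+AAV the 4 lists had 0 higher and 1 lower, 0 and 1, 0 and 0, and 3 and 0 at 10 weeks (5.15% of all genes called), in the order adaptors, ligands, cadherin partners, and dystrophin complex. At 40 weeks these were 1 and 4, 1 and 3, 0 and 1, and 3 and 2 (12.5%). With age, *Flnc*, a muscle filamin, rose in KO (1.35) and in KO+AAV (1.48), and *Vtn* fell in both (-0.91 and -0.93). Without KO replicate 2 neither passed in KO (*Flnc* 0.91, adjusted *P* = 0.0594, and *Vtn* -0.66, adjusted *P* = 0.0951). In the GFP experiment *Itgb1bp2* (melusin, 0.45), the matrix genes *Lama2* (0.68) and *Fn1* (0.87), and *Pkp4* (0.82) were higher with GFP and *Nos1* (-0.83) was lower.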

How the data were processed

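The authors used HISAT2 (GRCm38), HTSeq, and DESeq2, and the deposited signal values are reads on each gene over the size factor of the library. Multiplying each value by its size factor gave whole reads (tolerance 0.01) for 100% of values in every library. The annotation release and strand setting of the counting are not given in the sources used here. Symbols and coordinates are from GENCODE vM21 (99.5% of IDs).

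Log2(value + 1) was tested with limma 3.58.1 (intensity trend, R 4.3.3) over genes with a mean above 5: 34 gastrocnemius libraries as 6 groups with site as a covariate, and each other experiment alone. *P* values were Benjamini-Hochberg adjusted over all genes. Labels do not say that libraries of a group came from separate mice. TPM used recovered reads and exon lengths. Members and lists were chosen with earlier results of these data known. Named members were *Itga4*, *Cdh4*, up to 3 per direction and comparison (2 for ages and tissues) by *P* among adjusted *P* under 0.05, those with *P* under 0.01, the most abundant of each family, and up to 2 per direction from each list, and the others were named after their values were seen.

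Alternatives were edgeR 4.0.16, DESeq2 1.42.0, a pseudocount of 0.5, no filter, no site term, 1 site alone, a replicate block, and each library left out. The code was tested on simulated data. Figures used matplotlib 3.10.9.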

Additional observations from a re-analysis of the deposited data

Results flagged for a closer look

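Of 93 tests of the gap between the highest or lowest library and its nearest neighbor in groups of 4 to 7 libraries, 6 passed Dixon's limit, and chance gives about 1 in 20. *Cdh11* (313 normalized reads, others 26.04 to 50.6) and *Itga1* (750.5, others 341 to 462) were highest in 10-week KO+AAV replicate 4, the library with the highest fibroblast marker level. *Itga1* was lowest in 40-week KO+AAV replicate 2 (159, others 291 to 355). *Itga10* was lowest in 40-week WT replicate 1 (4.45, others 12.4 to 17.2), and *Itgad* was highest in 40-week WT replicate 4 (59.4, others 20.8 to 28.1). *Itgb5* was lowest in 40-week KO replicate 1 (874, others 1305 to 1377).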

How the results depend on the processing

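The number of members called kept within 1.5 times its value except as follows. WT versus KO at 10 weeks gave 6 calls, 1 with Novogene libraries alone and 2 with ICBR libraries alone. KO+AAV versus KO at 10 weeks gave 0 and 2 with DESeq2. WT versus KO+AAV at 10 weeks gave 5, 9 with DESeq2, 0 with Novogene alone, and 2 with ICBR alone. The age comparison in KO gave 2, 1 without the filter, 1 with edgeR, and 0 with Novogene alone, and in KO+AAV 5, 8 with edgeR, 8 with DESeq2, and 1 with Novogene alone. The GFP experiment gave 0, 2 without the filter, and 1 with DESeq2, and lung gave 0 and 5 with DESeq2. Fits of 1 site hold fewer libraries. No share of all genes is given for these alternatives or for most fits without 1 library, so their counts have no background to be read against. With the replicate number as a block, both age comparisons gave 0, and no other count moved by over 1.5 times. Same-numbered gastrocnemius libraries had correlations of -0.249 to 0.366 (median 0.0067), so the numbers share only a name there. In white fat the 4 same-numbered pairs had -0.383 to 0.577 (median 0.442, against -0.223 between other numbers). Whether those fat libraries are linked was not tested.

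Leaving out 1 library gave 4 to 5 calls for WT versus KO at 10 weeks, 0 to 0 for KO+AAV versus KO, and 3 to 6 for WT versus KO+AAV. At 40 weeks these were 11 to 13, 0 to 1, and 4 to 8. With age they were 0 to 0 in WT, 0 to 6 in KO, and 2 to 7 in KO+AAV, and 0 to 0 for both interactions. The GFP experiment gave 0 to 2, lung 0 to 1, and heart, liver, and white fat 0 to 0. No direction reversed among the single-member values (members called or with *P* under 0.01), while *Itga7* in white fat, which was not called, went from 0.52 to -0.09 without 3 libraries. Of 1095 values for single members, 920 kept their side of the threshold, 43 passed it, and 132 lost it. The white fat fit without 3 libraries (0 calls) and *Arntl* and the gene lists without KO replicate 2 or KO+AAV replicate 4 were chosen after seeing the data. Depth limits low members most: *Cdh6* rested on 1.69 ± 1.74 normalized reads in 40-week WT, and a missing call there does not show an unchanged level.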
